A study of Mesocricetus auratus with 24 samples.

Results

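The regions described here are 1 kb windows of the Syrian hamster genome that were methylated in a senescent cell culture and less methylated after the same culture had bypassed senescence. A window was a stretch of 1 kb starting at a whole multiple of that length on its scaffold, and its methylation level was the percent of all bisulfite reads over its CpG positions that carried C. Windows were kept when each of the 8 senescent and bypass libraries listed at least 3 CpG positions in them, the mean of the 4 senescent libraries was 60% or more, and the mean of the 4 bypass libraries was at least 15 percentage points below it. The rule kept 1079 windows. They are 5.76% of the 18744 windows with a senescent mean of 60% or more, called methylated windows below, and 2.61% of all 41315 windows measured in the 8 libraries. The windows were thus chosen by the levels of these 8 libraries, and the drop between the cultures is a description with no test.

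The series used reduced representation bisulfite sequencing (RRBS) of fetal Syrian hamster cells from a cell transformation assay, in which colonies of treated cells are scored for a transformed or a normal morphology. It has 24 libraries in 6 groups of 4. The senescent group (SEN) was taken on day 48 and the bypass group (SENbp) on day 94 from 1 culture, which grew out of a single morphologically transformed colony treated with 5 µg/mL benzo[a]pyrene (B[a]P). The colony came from an assay on pooled female and male fetuses and was typed as male. The 4 libraries of each are technical replicates, so their spread holds no variation between cultures, and bypass, time in culture and 1 colony's history cannot be told apart. The other groups came from a single male fetus and are labelled biological replicates. They are cultures of transformed (MTc) and of normal (Nc) colonies, both treated with 5 µg/mL B[a]P and grown for 19 to 25 days, and pools of about 60 colonies taken on day 9 after 5 µg/mL B[a]P (BaP) or after vehicle alone, 0.2% DMSO (DMSO).

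In mammals a methyl group is added mainly to cytosines that precede a guanine, and most CpG sites away from CpG islands are methylated in most cells. Bisulfite turns unmethylated cytosine into a base read as T and leaves methylated cytosine as C, and RRBS enriches short restriction fragments rich in CpG sites. Replicative senescence is a lasting growth arrest, and cells that bypass it go on dividing. Because methylation is copied to the new strand after each replication, a culture that keeps dividing can lose or gain it at individual sites.

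The deposited tables listed 809562 to 1484688 CpG positions per library, with a total coverage of 30316233 to 67276906 reads over positions and a median coverage of 21 to 38 reads. Total coverage was 39858141 to 52772391 in the 4 SEN and 35033371 to 48909677 in the 4 SENbp libraries. The tables name scaffolds, with no genome build given in the sources used here. Genes, exons and sequence in the windows were not analysed here, and coordinates are those of the tables, counted from 1.

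Methylation in the 1079 windows fell from high to intermediate levels and was seldom lost altogether. Their SEN means had a median of 80.4% and their SENbp means a median of 57.3%. The drop had a median of 20.3 points, with the middle of the windows between 17.2 (25th percentile) and 25.8 points (75th percentile). In SENbp, 460 windows still had a mean of 60% or more, 509 lay from 40% to 60%, 104 from 20% to 40%, and 6 were below 20%. The drop was 15 to 20 points in 516 windows, 20 to 30 in 405, 30 to 40 in 114, and 40 points or more in 44. At the edge of the rule, the 3 windows just inside had drops of 15.003, 15.019 and 15.020 points and the 3 just outside 14.993, 14.986 and 14.984 points, with no gap between them.

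The mean over the 1079 windows was 78.6, 83.8, 77.1 and 79.8% in SEN replicates 1 to 4, a mean of 79.8% ± 2.87 (SD, n = 4). It was 59.8, 57.5, 57.5 and 53.5% in SENbp replicates 1 to 4, a mean of 57.1% ± 2.64 (SD, n = 4). SEN replicate 2 was the highest and SENbp replicate 4 the lowest of the 8, and both lay on the side that widens the chosen drop. Over all 18744 methylated windows the same libraries hardly differed, at 85.1% ± 0.713 (SD, n = 4) in SEN and 85.6% ± 0.0286 (SD, n = 4) in SENbp. Loss was also the rarer direction. The mirror rule, a SENbp mean of 60% or more and a SEN mean at least 15 points below it, kept 2228 of 19389 windows (11.5%).

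Replicates of the same culture differed widely in single windows. The SD between the 4 libraries had a median over the 1079 windows of 11.1 points in SEN and 16.1 points in SENbp, against 7.38 and 6.99 points over all methylated windows. The SD was larger in SENbp than in SEN at 741 of the 1079, and at 8951 of all 18744 methylated windows. In the 2228 windows of the mirror rule it was the other way round, with a median SD of 14.1 points in SEN and 9.49 points in SENbp and the larger SD in SENbp at 683. The wider spread thus lay in the group chosen as the lower one in both sets. In 263 windows (24.4%) each SENbp library lay below each SEN library. The background was 2.16% of the methylated windows, but the rule used this contrast and nothing is read from the 2 shares.

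The rule was also applied 8 times with 1 library left out of the choice each time, and that library was then measured in the windows chosen. The left-out SEN libraries had means of 72.2, 74.3, 71.7 and 71.4% over 1059 to 1292 windows, below the 80.3 to 81.4% of the 3 SEN libraries that chose them. The left-out SENbp libraries had means of 67.5, 67.3, 67.5 and 65.8% over 1129 to 1249 windows, above the 56.6 to 57.1% of the 3 SENbp libraries that chose them. All 4 left-out SEN means were above all 4 left-out SENbp means. A library with no difference between the cultures would also fall between the 2 chosen means, so a place between them does not by itself show a kept drop. The distance from the other group was 58.0 to 73.0% of the chosen drop for SEN libraries and 53.5 to 61.2% for SENbp libraries. Window by window, a left-out SENbp library was nearer the SENbp mean in 48.7 to 50.1% of windows, and a left-out SEN library was nearer the SEN mean in 58.8 to 64.4%. Of the 1079 windows, 402 (37.3%) met the rule in all 8 of these choices and 677 failed it in at least 1. Leaving out SEN replicate 2 removed 270 of them and leaving out SENbp replicate 4 removed 257, the largest losses of the 8.

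**Figure D1:**
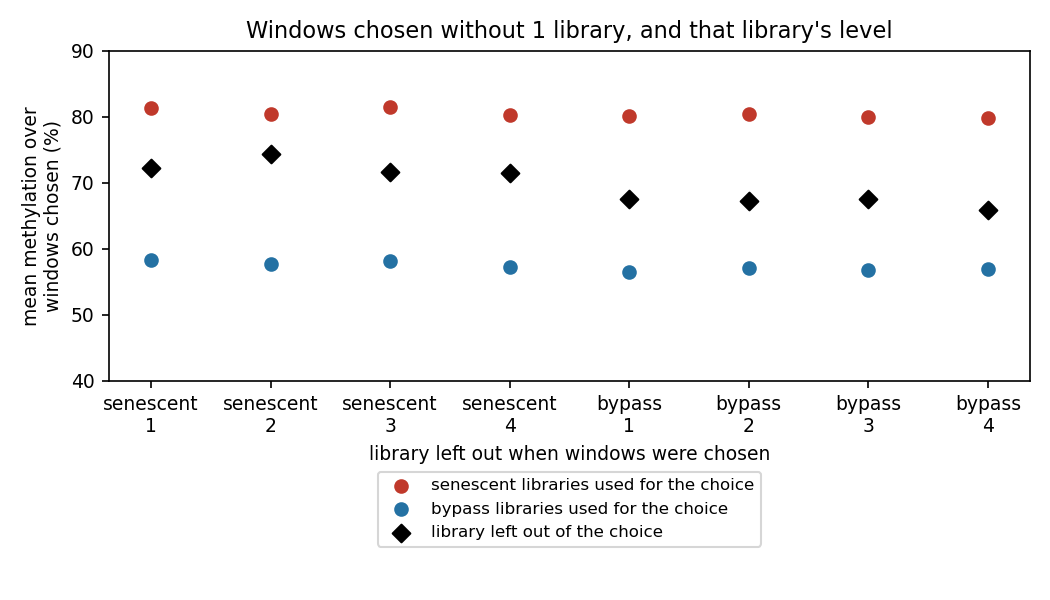
Mean methylation in percent over the windows chosen when 1 of the 8 libraries was left out, for the SEN libraries used (red), the SENbp libraries used (blue) and the library left out (black diamonds); the axis runs from 40 to 90%. Left-out SEN libraries sit at 71.4 to 74.3% and left-out SENbp libraries at 65.8 to 67.5%, each between the 2 groups that chose the windows.

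Libraries did not list the same positions in a window, so the drop was also taken over positions shared by all 8. At least 3 shared positions were found in 335 of the 1079 windows. Over them the drop had a median of 20.8 points and was at least 15 points in 250 windows, and 238 met the whole rule. In 127 of the 335 windows all shared positions were lower in SENbp. All 1079 windows together held 1470 shared positions, including those in windows with fewer than 3. Of these 1470, 74.1% were lower in SENbp, against 34.4% in methylated windows that did not meet the rule. The share of the 1470 with an intermediate mean, from 20% to 80%, was 40.1% in SEN and 53.3% in SENbp. The share at 80% or more fell from 57.2% to 31.0%, and the share under 20% went from 2.65% to 15.7%. Where both strands could be measured in all 8 libraries, in 236 windows, both were lower in SENbp in 196 and lower by at least 15 points in 84. The median drop was 20.8 points on the forward and 20.9 points on the reverse strand. Of 4476 such methylated windows that did not meet the rule, both strands were lower in 770, and by at least 15 points in 7. The values by position and strand use the same reads that chose the windows, so lower values follow largely from the choice and test nothing.

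The windows held few CpG positions. The mean number listed per library had a median of 6.38 (interquartile range 4.88 to 8.50), against 7.38 (5.50 to 10.4) for all methylated windows. The share of methylated windows that met the rule fell with density, from 8.37% at 3 to 5 positions through 6.94, 5.25, 4.13 and 2.14% to 1.56% (2 of 128) at 30 positions or more. It also fell with the starting level. It was 8.88% at a SEN mean of 60 to 70%, 8.73% at 70 to 80%, 7.06% at 80 to 90% and 2.59% at 90% or more. Reads behind a value moved with density, with a median of 275 reads per window and library in the 1079 and 316.5 in all methylated windows. Fewer reads and positions give a wider spread, and a rule on a difference of means keeps more such windows. Their part in the relation with density was not tested. Few methylated windows of any kind lay beside CpG-dense unmethylated windows (30 or more positions and a mean under 20%), and the 1079 were near that background. Of the 1079, 15 (1.39%) had such a window within 2 windows on either side, against 366 (1.95%) of all methylated windows.

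**Figure D2:**
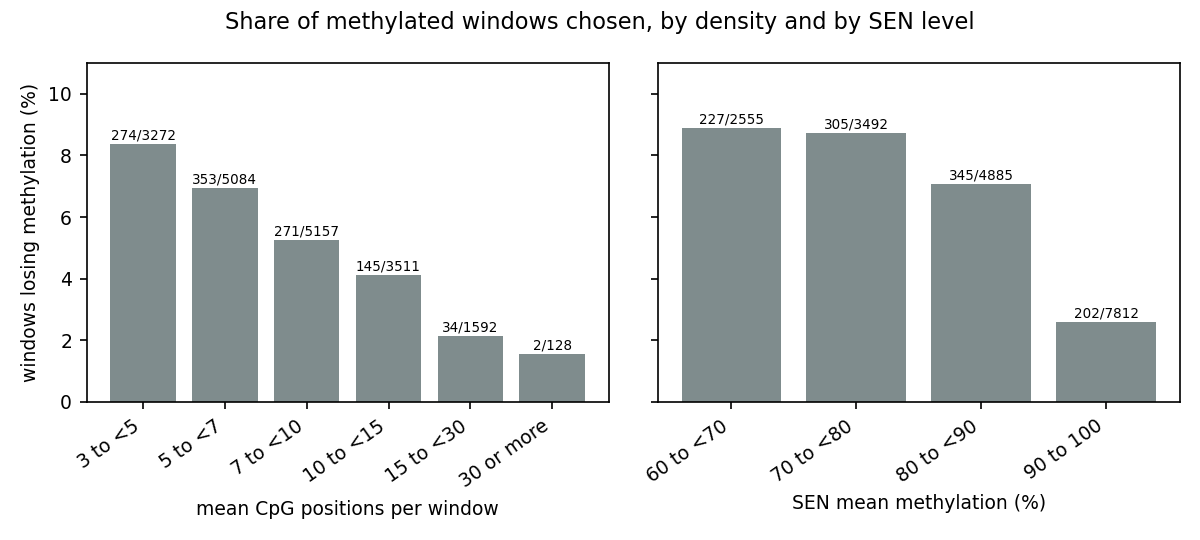
Share in percent of methylated windows that met the rule, by mean number of CpG positions per window (left) and by SEN mean (right), with the count of windows kept over the count in each class above its bar. The share falls from 8.37 to 1.56% with density and from 8.88 to 2.59% with the SEN mean.

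The 3 windows with the most positions were weakly separated. They are KB708292.1:2793001-2794000 with a mean of 39.6 positions, KB708341.1:359001-360000 with 38.5 and KB708274.1:1903001-1904000 with 28. The first had a SEN mean of 72.6% ± 15.9 and a SENbp mean of 49.2% ± 26.1 (SD, n = 4 each). The other two dropped by 15.7 and 16.0 points, and in all 3 the ranges of SEN and SENbp overlapped. In the window on KB708341.1 the forward strand was 33.6 points lower in SENbp while the reverse strand was 14.3 points higher.

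The windows lay mostly alone. Only 8 of the 1079 (0.741%) had another in the next 1 kb, 66 (6.12%) had one within 10 kb and 313 (29.0%) within 100 kb. For all methylated windows the shares with one of the 1079 at these distances were 0.587, 3.59 and 21.2%. Joined at 10 kb they formed 1013 single windows, 30 pairs and 2 triplets. Read the other way, 5.18% of methylated windows farther than 100 kb from any other member of the 1079 met the rule, 7.50% at 11 to 100 kb, 10.3% (58 of 562) at 2 to 10 kb, and 7.27% (8 of 110) in the adjacent window.

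The 1079 windows were spread over 238 of the 885 scaffolds with a methylated window. On the 113 scaffolds with at least 50 methylated windows, the share that met the rule had a median of 5.08% and ran from 0 to 16.9% (10 of 59 on KB708258.1), with 4 scaffolds at 0. On 10 of 251 scaffolds SENbp libraries held a lower share of reads than SEN libraries, by at least 0.5 on the log2 scale. The rule kept 9.33% of the 375 methylated windows there and 5.68% elsewhere, and 35 of the 1079 lie on those scaffolds. Their part in the drop was not tested. Over the 1079 windows the log2 ratio of the SENbp to the SEN share of reads had a median of -0.02, and over all methylated windows -0.03.

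The 2 triplets lie on KB708201.1 and KB708218.1. In the first, windows starting at 9236001, 9242001 and 9250001 dropped by 20.6, 23.1 and 38.0 points, and the last alone had SEN and SENbp ranges that did not overlap. In the second, windows starting at 3533001, 3536001 and 3544001 dropped by 17.1, 19.6 and 18.0 points. The pair with the largest mean drop is on KB708151.1. KB708151.1:746001-747000 stood at 81.8, 65.8, 85.4 and 69.2% in SEN and 42.7, 51.1, 35.7 and 24.4% in SENbp. KB708151.1:754001-755000, 8 kb away, stood at 58.6, 85.8, 60.2 and 83.5% in SEN and 26.3, 40.6, 44.1 and 17.0% in SENbp. In both windows each SENbp library was below each SEN library. Over the 16 libraries of the other groups the 2 windows had means of 66.8 and 64.9%, nearer their SEN than their SENbp means.

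The rule did not use the other 4 groups, and 318 of the 1079 windows (29.5%) could be measured in all 24 libraries. Over these 318 the mean was 77.8% ± 3.71 in SEN and 55.7% ± 2.42 in SENbp. It was 67.7% ± 2.25 in MTc, 63.7% ± 3.47 in Nc, 68.4% ± 0.431 in BaP and 66.6% ± 1.33 in DMSO (SD, n = 4 each). Every one of these 16 other libraries, from 58.9 to 70.8%, lay below the 4 SEN libraries (74.0 to 82.9%) and above the 4 SENbp libraries (52.1 to 57.2%). The groups of young colonies and pools thus stood between the 2 states of the long-term culture. These groups came from a single fetus and the culture from an assay on pooled fetuses. Animal, colony and time in culture thus cannot be told apart in these differences. Over all 6775 methylated windows measured in 24 libraries the order was another one, with SENbp at 84.8%, SEN at 83.9%, MTc at 79.7%, BaP at 77.2%, Nc at 77.0% and DMSO at 76.5%. The 6775 were themselves chosen by a high SEN mean, which favours SEN in that order.

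**Figure D3:**
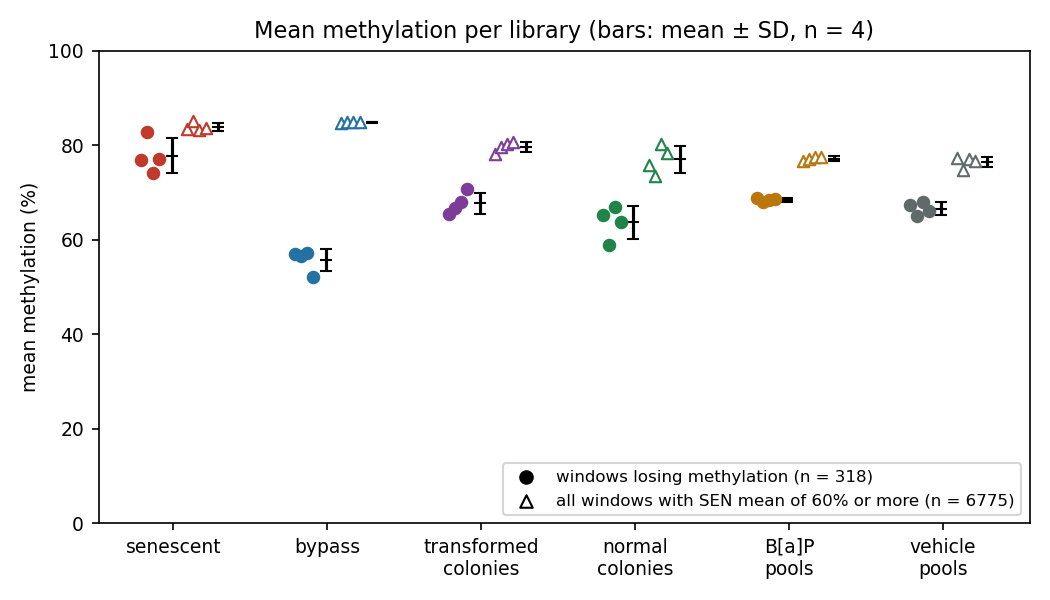
Mean methylation in percent of each library over the 318 windows that met the rule and were measured in all 24 libraries (filled circles) and over all 6775 methylated windows measured in them (open triangles), with the mean ± SD of 4 libraries beside each group. The circles of the colonies and pools lie between those of SEN, at 74.0% or more, and those of SENbp, at 57.2% or less.

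Choosing windows with a high SEN and a low SENbp mean by itself tends to place other libraries between them, so windows of the same SEN level were compared. The SEN level used for matching is 1 of the values that chose the windows, which leaves the match imperfect. Within a class the windows that met the rule are also those with the low SENbp means. A lower level in other libraries can follow from that choice alone, so the gaps below are a description. At SEN means of 70 to 80%, the 93 windows that met the rule had a median of 65.0% over the 16 other libraries and the 1300 that did not had 72.7%. At 60 to 70% the medians were 56.3 and 64.2%, at 80 to 90% 74.8 and 81.5%, and at 90% or more 81.2 and 91.1%. In each of these 4 classes and each of the 4 groups, 16 of 16 comparisons, the windows that met the rule had the lower median, by 4.15 to 10.2 points. The 4 groups were read in the same windows, so the 16 are not independent. The windows that met the rule were mostly more variable in these groups too. The median SD between the 4 libraries of a group, taken within classes of level and number of positions, was larger in the windows that met the rule in 22 of 24 classes. Within BaP at levels of 80% or more and under 7 positions, it was 10.9 points in them and 8.27 points in other methylated windows. Within MTc at 60 to 80% and under 7 positions the gap was small, at 16.0 and 15.5 points. At 40 to 60% in MTc the SD was smaller in the windows that met the rule, in both classes of positions. The same windows enter the classes of several groups, so the 24 are not independent. Reads per window were not matched, and their part in the spread was not tested.

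Single windows did not share 1 pattern. The mean of the 16 other libraries was nearer the SEN mean in 173 of the 318 windows (54.4%) and nearer the SENbp mean in 145. It was above the SEN mean in 49 and below the SENbp mean in 58. The windows were read in the same libraries and are not independent, so no interval is given for these counts. By group, 188 windows were nearer SEN in MTc, 137 in Nc, 191 in BaP and 173 in DMSO. Of the 83 windows whose SEN and SENbp ranges did not overlap, 50 were nearer SEN. The share nearer SEN varied with the choice of libraries and positions, with the rule applied anew in each. It was 67.3% over shared positions (35 of 52 windows) and 46.8% with 5 or more positions per library (29 of 62). These 2 shares rest on few windows. It was 46.2, 43.9 and 47.7% without SEN replicates 1, 3 and 4, so which mean was nearer in most windows is not settled. SENbp was below all 20 other libraries in 4 of the 318 windows, and SEN was above all 20 other libraries in 1. The same counts over all methylated windows are not given here, so nothing is read from them.

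**Figure D4:**
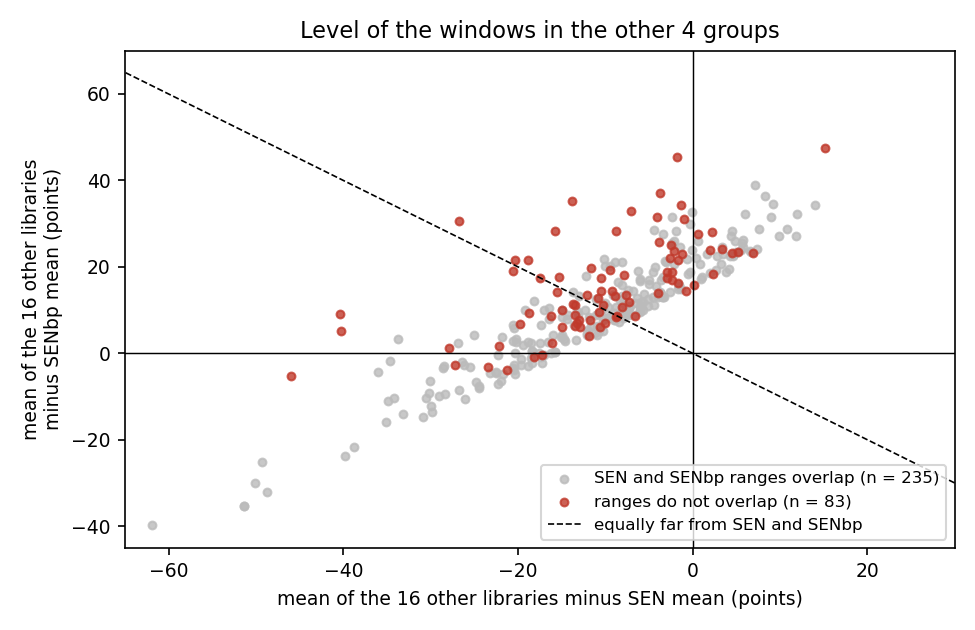
For each of the 318 windows, the mean of the 16 libraries of the other groups minus the SEN mean (horizontal, points) against the same mean minus the SENbp mean (vertical, points), with windows whose SEN and SENbp ranges do not overlap in red (83) and the others in grey (235). Windows above the dashed line (173) are nearer SEN, those to the right of the vertical line (49) are above SEN and those under the horizontal line (58) are below SENbp.

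The 10 windows with the largest drop, among those with 5 or more positions in each of the 8 libraries, ranges that did not overlap and a value in all 24, show these patterns library by library. The largest was KB708181.1:2234001-2235000, with 5 to 7 positions and 225 to 476 reads per library. It stood at 70.1, 80.9, 64.3 and 49.2% in SEN and 26.8, 13.0, 16.9 and 9.82% in SENbp. It was at 25.3, 19.6, 48.3 and 16.5% in MTc and 31.0, 0, 4.84 and 28.6% in Nc. The pools had 27.5, 27.5, 14.3 and 11.5% in BaP and 62.8, 34.2, 27.4 and 31.7% in DMSO. Its means over MTc, Nc, BaP and DMSO were 27.4, 16.1, 20.2 and 39.0%, nearer to SENbp than to SEN in each group. Each DMSO library was nevertheless above each SENbp library. A single library of these 16, DMSO replicate 1, lay inside the range of SEN. All 5 positions shared by the 8 libraries were lower in SENbp, by 21.1 to 81.2 points.

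The opposite pattern was found at KB708136.1:11148001-11149000, with 9 to 27 positions and 330 to 1499 reads per library. It stood at 83.4, 91.4, 90.3 and 71.3% in SEN and 33.9, 66.1, 62.4 and 31.8% in SENbp. All 16 other libraries lay from 67.9 to 95.8%, above each SENbp library, with means of 88.7% in MTc, 81.6% in Nc, 82.1% in BaP and 78.8% in DMSO. The 3 shared positions at 11148154, 11148163 and 11148168 went from 76.4, 91.2 and 100% in SEN to 0, 0.200 and 18.2% in SENbp. The 2 at 11148188 and 11148194, on the same stretch, went from 99.4 and 100% to 77.2 and 84.2%, and the one between them at 11148177 from 32.9 to 15.5%. Loss was thus close to complete at some sites of the window and partial at others.

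KB708447.1:293001-294000, with 13 to 24 positions and 470 to 1527 reads per library, had similar means in every group but SENbp. It stood at 62.5, 74.9, 62.6 and 62.2% in SEN and 28.9, 41.7, 31.7 and 52.1% in SENbp. The means were 65.4% ± 1.62 in MTc, 64.6% ± 5.63 in Nc, 63.8% ± 6.16 in BaP and 70.7% ± 12.5 in DMSO (SD, n = 4 each). The lowest of these 16 libraries, at 52.5%, was above the highest SENbp library. The drop lay on the reverse strand, at 47.6 points, against 5.85 points on the forward strand. At the neighbouring cytosines 293691 and 293692, which face each other on the 2 strands of 1 CpG site, the forward strand went from 64.7 to 50.0% and the reverse strand from 96.2 to 16.3%. The strands already differed in SEN. Forward and reverse SEN means were 11.6 and 85.5% at 293697 and 293698, and 0 and 64.5% at 293702 and 293703. Position 293660, on the forward strand, rose from 46.0 to 64.1%.

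KB708233.1:2412001-2413000 stood at 100, 100, 96.5 and 90.5% in SEN and 71.1, 88.2, 67.1 and 48.9% in SENbp. Its 16 other libraries had a mean of 86.3%, between the 2, and the ranges of SENbp and of each other group overlapped. KB708130.1:186001-187000 stood at 78.8, 91.5, 70.9 and 92.2% in SEN and 55.6, 47.4, 63.6 and 50.1% in SENbp, and its 6 shared positions were lower by 7.2 to 49.2 points. There single libraries of other groups differed widely, at 70.5, 21.6, 23.6 and 66.3% in Nc and 52.0, 0, 51.7 and 82.1% in DMSO. KB708266.1:2809001-2810000, with a drop of 27.4 points, kept a level of 92.0% over the 16 other libraries, but its 3 shared positions dropped by only 3.32 points. The libraries of that window listed different sites, and the part of the sites listed in its drop was not tested.

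The window on KB708151.1 given above, with a drop of 40.04 points, is also among the 10. Of the rest, KB708269.1:804001-805000 dropped by 34.8 points, KB708169.1:4453001-4454000 by 29.6 and KB708217.1:3486001-3487000 by 25.6. In the last the forward strand was 38.6 points lower in SENbp and the reverse strand nearly level, and its scaffold is 1 of the 10 with a lower share of reads in SENbp. Across the 10, leaving out 1 library moved the smallest drop to 20.5 points and all stayed above 15.

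**Figure D5:**
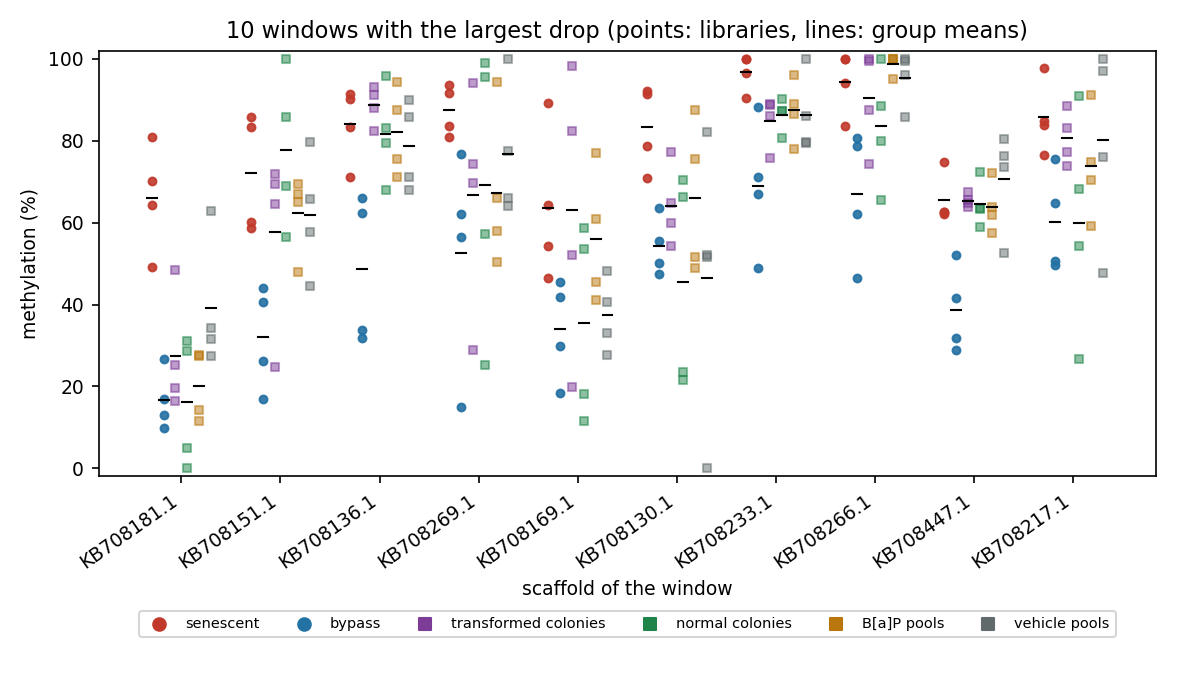
Methylation in percent of the 10 windows with the largest drop, named by scaffold, in each of the 24 libraries, with circles for SEN (red) and SENbp (blue), squares for the other groups and a black line at each group mean. The means of the other groups are nearer SENbp than SEN on KB708181.1, at 16.1 to 39.0% with DMSO the highest. They lie with SEN on KB708136.1 and KB708447.1, at 63.8 to 88.7%.

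The extremes of level in the other groups were taken among windows with 5 or more positions in all 24 libraries. The lowest 3 were KB708225.1:8005001-8006000, KB708302.1:1197001-1198000 and KB708244.1:2579001-2580000, with means over the 16 other libraries of 16.0, 24.0 and 24.8%. The first stood at 65.8, 83.3, 69.5 and 51.0% in SEN and 75.3, 57.4, 47.6 and 24.4% in SENbp, while none of the 16 other libraries exceeded 29.3%. All 4 SEN libraries and 3 of the 4 SENbp libraries were above every colony and pool library there. The culture differs from those groups in animal and in time in culture, which cannot be told apart. The highest 3 were KB708161.1:12832001-12833000, KB708233.1:2412001-2413000 and KB708273.1:2972001-2973000, with means of 87.3, 86.3 and 85.1%. The first of them stood at 91.9, 92.8, 97.8 and 99.2% in SEN and 77.3, 76.9, 70.5 and 81.5% in SENbp, with no overlap.

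The comparisons among the other groups ask whether the same windows moved with treatment or morphology. With 4 libraries per group and a wide spread between them, large differences can go uncalled. A lack of calls therefore does not show that the windows stayed level. Each was fitted over all windows tested with a quasi-binomial model of methylated and unmethylated reads, with dispersions moderated by limma and Benjamini-Hochberg adjustment, and calls needed group means at least 10 points apart besides an adjusted p below 0.05. In the comparison the rule used, SENbp against SEN, 945 of 24795 windows were called (3.81%), of which 91 were lower (0.367% of those tested) and 854 higher. Of the 1077 windows tested that met the rule, 63 were called, all of them lower. Nothing is read from that count.

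None of them was called for B[a]P treatment of the pools. Of 18593 windows tested in BaP against DMSO 0 were called (0.0%), with 1187 (6.38%) at an unadjusted p under 0.05, and limma on log2 ratios also called 0. Of the 409 tested that met the rule 33 had an unadjusted p under 0.05 (8.07%) by the same model. BaP minus DMSO had a median of 1.12 points over the 409 and 0.637 points over all windows tested. Among the 318, the groups did not overlap in 10 windows with BaP higher and 3 with BaP lower (backgrounds 1.48 and 1.09% of 6775). The smallest p among the 409 was at KB708167.1:5819001-5820000, with an adjusted p of 0.748 in the quasi-binomial model. It stood at 45.5, 55.0, 37.5 and 43.9% in BaP and 83.8, 61.2, 68.4 and 83.5% in DMSO, without overlap. Even a gap of this size was thus not called.

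None was called between transformed and normal colonies by the same test. Of 27002 windows tested in MTc against Nc 0 were called (0.0%), with 2196 (8.13%) at an unadjusted p under 0.05, and limma on log2 ratios called 0. Of the 593 tested that met the rule 51 had an unadjusted p under 0.05 (8.60%). The median of MTc minus Nc was 3.44 points over the 593 and 2.39 points over all windows tested. Among the 318, MTc was higher in 202 and lower in 116, with no overlap in 11 and 3 windows (backgrounds 1.86 and 0.753% of 6775). The smallest p among the 593 was at KB708274.1:1203001-1204000, with an adjusted p of 0.510 in the limma-moderated quasi-binomial model. It stood at 78.2, 43.8, 65.6 and 73.3% in MTc and 18.5, 36.1, 15.8 and 35.9% in Nc. In that window the SEN libraries stood at 79.3, 86.0, 83.8 and 7.95%, so the SEN mean rests on 3 libraries far above the fourth.

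Transformed colonies against B[a]P pools gave no call either, and these libraries are shared with the 2 comparisons above. Of 27288 windows tested 0 were called (0.0%), with 2718 (9.96%) at an unadjusted p under 0.05, and limma on log2 ratios called 0. Of the 576 tested that met the rule 45 had an unadjusted p under 0.05 (7.81%). The median of MTc minus BaP was -0.59 points over the 576, while over all windows tested it was 2.0 points. Among the 318, MTc was lower than BaP in 169 and higher in 149, while among all 6775 methylated windows MTc was lower in 2726 and higher in 4043. The groups did not overlap in 7 of the 318 with MTc higher and 5 with MTc lower (backgrounds 3.87 and 1.03% of 6775). The smallest p among the 576 was at KB708216.1:8397001-8398000, with an adjusted p of 0.157 in the limma-moderated quasi-binomial model. This window is not among the 318. It stood at 81.5, 99.6, 89.7 and 100% in MTc and 44.5, 37.8, 47.6 and 39.4% in BaP. Its SENbp libraries stood at 78.7, 80.4, 100 and 21.1%, and without SENbp replicate 4 its drop was 2.56 points.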

How the data were processed

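The 24 RRBS libraries were grouped by their labels. Per the file headers, the authors deposited tables of CpG positions by strand, each with a raw count of covering reads and the percent of them with C or T, from 10 reads upward. The submitters' processing notes name methylKit 1.10.0, Bismark 0.22.1, Bowtie2, Trim Galore 0.5.0, bcl2fastq 2.20.0.42 and R 3.6.1, with no role. Removal of PCR copies is not stated.

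Coverage times percent gave methylated reads (100% whole within 0.06 reads), which were summed over 1 kb windows with Python 3.11.15, with no upper limit on coverage. Group means are means of library levels. Group comparisons used a quasi-binomial logistic model per window in R 4.3.3, with dispersions squeezed with limma 3.58.1 in 10 classes of pooled methylation (floor 1) and an F test, over windows with 3 or more positions in each of the 8 libraries and pooled methylation of 5 to 95%. P-values for SEN and SENbp measure technical spread only.

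The windows, lists and tests were chosen with earlier results of these data known, and the matching by level and the values by strand and shared position were added after seeing the data. Windows were named by rule: the 10 largest drops (5 or more positions in each of the 8, no overlap, values in all 24), 3 on each side of the threshold, 3 groups within 10 kb, the 3 with the most positions, the smallest p of each comparison without a call, and the 3 lowest and highest in the other groups. A rule on gene starts was void, as no annotation of the tables' build was used here. Alternatives were shared positions, a coverage limit, 5 or more positions, unweighted means, shifted windows, other tests and leaving out libraries.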

Additional observations from a re-analysis of the deposited data

Results flagged for a closer look

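In 4 of 68 groups of 4 libraries examined, 1 library stood apart from the other three by more than Dixon's 95% critical value, where chance gives about 3.4. The mean of SENbp replicate 4 over the 318 windows measured in all 24 libraries was 52.1%, below the other three at 56.5 to 57.2%. In the window KB708151.1:754001-755000, MTc replicate 2 stood at 24.8%, with the other MTc libraries at 64.6 to 72.0%. In KB708266.1:2809001-2810000, BaP replicate 2 stood at 95.1%, with the other BaP libraries at 100%. In KB708447.1:293001-294000, SEN replicate 2 stood at 74.9%, above the others at 62.2 to 62.6%. SENbp replicate 4 and SEN replicate 2 are also the libraries whose omission removed the most windows from the 1079, at 257 and 270.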

How the results depend on the processing

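The number of windows meeting the rule was 1079. It was 411 over positions listed in all 8 libraries and 247 with 5 or more positions per library, where fewer windows could be measured, and 1059 to 1292 with 1 library left out. It stayed close with the top 0.1% of coverage left out (1073), with unweighted means (1032, of which 791 were shared) and with windows shifted by 500 bases (1069). The share nearer SEN in the other groups was 67.3% over shared positions (35 of 52 windows), 46.8% with 5 or more positions (29 of 62) and 43.9 to 56.3% with 1 library left out. Most windows were thus nearer SENbp with 5 or more positions and without SEN replicate 1, 3 or 4 (46.2, 43.9 and 47.7%). The median number of positions was 3 and 10.25 under the same pair of settings, and the share within 10 kb of another was 1.95 and 0.810%. Calls of SENbp against SEN were 548 with the replicate block (replicate number as a term), 77 with limma on log2 ratios, 217 without squeezed dispersion, 332 over shared positions and 482 to 797 with 1 library left out, the fewest without SEN replicate 3 or 4. The windows meeting the rule among them were 41 with the replicate block, 6 with limma and 16 without squeezing.

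The labels do not say that replicate numbers pair the samples, and correlations of same-numbered libraries ran from -0.03 to 0.02. With the replicate block 9 windows were called in BaP against DMSO, 23 in MTc against Nc and 18 in MTc against BaP, of which 1, 2 and 0 met the rule. With 1 library left out these counts were 0 to 1 (1 without DMSO replicate 1), 0 to 1 (1 without MTc replicate 3 or Nc replicate 4) and 0 to 11 (11 without MTc replicate 1, 3 without MTc replicate 4, 1 without BaP replicate 2). With 5 or more positions 4 windows were called in MTc against BaP and none met the rule. The cause of these changes was not tested. Drops of the named windows moved beyond their spread in 6 of 17 windows over shared positions and in 2 of 34 with unweighted means. Positions under 10 reads are not listed, and single windows rest on as few as 30 reads per library, which limits each window more than the means over many.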
